A study of Mus musculus with 6 samples.

Results

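Macrophages marked by Cd163, Cbr2 and Fcna were examined in 6 droplet single-cell RNA libraries labelled with 4T1, a transplantable mouse mammary carcinoma line that models the triple-negative form of breast cancer. Cells were chosen by raw counts of unique molecular identifiers (UMIs, 1 per captured RNA molecule). A barcode was a member when it had at least 300 genes, at most 20% mitochondrial UMIs, a summed count of at least 3 over Cd163, Cbr2 and Fcna with at least 2 of these genes detected, and fewer than 12 UMIs of Epcam, Krt7, Krt8 and Krt18 per 10000. The gate left 319 members of 42259 barcodes that passed the filter on genes and mitochondrial UMIs, out of 42902 in all. Members were set against 9172 contrast barcodes, which had at least 20 UMIs of the complement genes C1qa, C1qb and C1qc per 10000 and none of the 3 gate genes. Because the gate and the contrast were built from measured counts, Cd163, Cbr2, Fcna, the C1q genes and the 4 epithelial genes are given below as descriptions, without a test.

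The tested libraries, 3 in number, are labelled shPgk1: 4T1 cells that received a lentiviral short hairpin RNA against Pgk1, the gene of the glycolytic enzyme phosphoglycerate kinase. The other 3 libraries, shNC, carried a non-targeting hairpin. Both kinds of cells were exposed to virus for 48 h, and puromycin (2 µg/mL) was then applied over 7 days. The labels name the 4T1 line and breast cancer as the source, describe the hairpin in the line itself and name no animal, so the origin of the macrophages and whether they carry a hairpin are not stated. The labels call the libraries biological replicates and do not give their separate origins, so a p-value here reflects only how these 6 samples vary, which may be technical. Pgk1, the check of the labels, was at 244, 292 and 317 counts per 1000000 UMIs (CPM) in epithelial tumour-like barcodes of libraries 1 to 3 labelled shPgk1, against 279, 244 and 224 CPM in shNC. Of the 3 libraries labelled shPgk1, 2 lay above all 3 shNC libraries. The target gene therefore goes against the label, and every direction below is that of the label.

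CD163 is a scavenger receptor that takes up haemoglobin bound to haptoglobin, and it is carried by many tissue macrophages. Cbr2 encodes a mouse carbonyl reductase and Fcna the secreted lectin ficolin A, which binds sugars on microbes and starts the lectin pathway of complement. Macrophages that settle in tissues tend to express such uptake receptors, along with the folate receptor gene Folr2 and the hyaluronan receptor gene Lyve1. They clear debris, handle iron from red cells and line vessels and nerves, whereas cells freshly derived from blood monocytes carry more genes of inflammation and antigen presentation.

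The promoters of 4 genes named for the members are shown, and all of them hold a match to a motif given below. Cbr2 and Fcna belong to the gate, and Retnla was detected in only 41 of 319 members. Cd163, which has no match, and Folr2, which has a match, are not shown. Each promoter shown runs from 250 bases before to 50 bases after the annotated start in RefSeq, build GRCm38.p6. It is written 5′ to 3′ on the strand of the gene. Capitals mark the letters TGCTGA or their reverse complement TCAGCA, the core of a half-site bound by MAF factors. In Cbr2 and Retnla they also mark the STAT6-type palindrome, which is TTC and GAA with any 4 bases between them. In Cbr2 the run TTCGGAAGAA is the match to the palindrome, in Retnla it is TTCACAAGAA, and the 2 motifs do not overlap.
Cbr2, chr11:120731972-120732271, minus strand: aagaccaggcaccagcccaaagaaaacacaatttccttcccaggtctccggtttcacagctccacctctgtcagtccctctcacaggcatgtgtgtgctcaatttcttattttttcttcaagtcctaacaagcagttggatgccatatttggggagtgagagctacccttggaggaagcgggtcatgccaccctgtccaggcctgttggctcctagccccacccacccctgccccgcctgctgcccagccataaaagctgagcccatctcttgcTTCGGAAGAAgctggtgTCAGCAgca
Fcna, chr2:25627925-25628224, minus strand: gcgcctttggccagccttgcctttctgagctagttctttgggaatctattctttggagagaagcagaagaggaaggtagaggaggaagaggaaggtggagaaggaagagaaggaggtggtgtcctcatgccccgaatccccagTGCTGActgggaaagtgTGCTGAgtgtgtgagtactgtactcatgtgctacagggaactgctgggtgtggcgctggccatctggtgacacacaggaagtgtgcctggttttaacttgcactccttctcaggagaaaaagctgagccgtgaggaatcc
Ccl8, chr11:82114935-82115234, plus strand: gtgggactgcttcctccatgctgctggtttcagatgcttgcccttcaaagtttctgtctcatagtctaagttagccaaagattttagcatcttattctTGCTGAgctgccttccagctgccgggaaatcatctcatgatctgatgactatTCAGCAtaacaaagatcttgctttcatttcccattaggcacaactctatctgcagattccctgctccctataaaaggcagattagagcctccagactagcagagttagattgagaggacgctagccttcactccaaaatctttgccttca
Retnla, chr16:48842359-48842658, plus strand: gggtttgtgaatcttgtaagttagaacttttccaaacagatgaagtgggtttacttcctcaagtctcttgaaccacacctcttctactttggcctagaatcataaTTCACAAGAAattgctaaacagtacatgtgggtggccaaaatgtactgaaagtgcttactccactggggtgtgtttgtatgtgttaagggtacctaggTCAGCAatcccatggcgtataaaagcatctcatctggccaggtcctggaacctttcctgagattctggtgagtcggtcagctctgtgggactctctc

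TGCTGA on either strand was found in 10 of the 19 marker and resident macrophage genes that had a promoter in the RefSeq table, of 25 genes looked up, and in 19.5% of all 32851 promoters of this length. The palindrome was found in 4 of the 19, namely Cbr2, Cd5l, Retnla and Selenop, and in 6.95% of all promoters. Cd163 held neither motif in this window. A match is a run of letters and does not show that a factor binds there.

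Among the 319 members, 130 had UMIs of all 3 gate genes, 97 of Cbr2 and Fcna, 62 of Cd163 and Cbr2, and 30 of Cd163 and Fcna. Cbr2 was detected in 90.6% of members, Fcna in 80.6% and Cd163 in 69.6%. Of all UMIs of each gene in the kept barcodes, the members held 66.7% for Cd163, 38.7% for Fcna and 19.97% for Cbr2. Most other Cbr2 UMIs, 66.2%, lay in barcodes with 12 or more epithelial UMIs per 10000, where Cbr2 was detected in 14.5% of barcodes, so Cbr2 alone would not mark these macrophages. Just inside the gate, the 50 members with a sum of 3 had 158 CPM of Folr2 and 4930 CPM of Ccl8. Just outside it, 81 barcodes with a sum of 2 on 2 genes had 52.0 CPM of Folr2 and 2766 CPM of Ccl8, and 151 barcodes with a sum of 3 or more on a single gene had 168 and 6157 CPM. Members with a sum of 10 or more, 136 in number, had 665 CPM of Folr2 and 28088 CPM of Ccl8, so the level of both genes was graded across the gate and the edge of the group is a threshold, not a gap.

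All 11 macrophage markers looked up had UMIs in members and 9 were higher there than in contrast barcodes, with a summed level of 27875 to 43589 CPM in the members of the 6 libraries and 26519 to 31859 CPM in contrast barcodes. That sum includes the C1q genes used to define the contrast. With CPM added over the 6 libraries, all 6 T cell and all 6 neutrophil marker genes were higher in members than in contrast barcodes. Their list sums per library were 19.4 to 186 CPM and 75.7 to 5750 CPM in members. In contrast barcodes they were 25.7 to 54.9 CPM and 60.01 to 630 CPM. The median sum over libraries was lower in members, at 27.0 against 33.4 CPM for T cell genes and 256 against 413 CPM for neutrophil genes. Of 6 epithelial genes 1 was higher, with sums of 275 to 478 CPM in members and 284 to 650 CPM in contrast barcodes. The gate capped Epcam, Krt7, Krt8 and Krt18 in members but not in contrast barcodes, so the direction of these genes is no result. Of the contrast barcodes, 737 had 12 or more UMIs of them per 10000. Sums of NK, B cell and pericyte genes did not exceed 16.1 CPM in members. The part of these markers in the results was not tested. The term resident-like rests on Folr2, Lyve1 and similar genes below, while Timd4, the phosphatidylserine receptor of many long-lived resident macrophages, was detected in only 11 of 319 members. In 8 members, all in shNC library 1, the C1q genes were below the 20 UMIs per 10000 that the contrast required. The cells are called Cd163 Cbr2 Fcna macrophages or members after their gate.

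Library totals ran from 111982862 to 128933960 UMIs in libraries labelled shPgk1 and from 78778073 to 113157507 UMIs in shNC. Members were shallower than contrast barcodes, with a median of 8828 UMIs against 14550.5, and the ribosomal-RNA-like transcripts Gm42418 and AY036118 took 9.67% to 16.4% of member UMIs and 7.06% to 10.3% of contrast UMIs across libraries. A Scrublet doublet score above 0.25 was found for 1 member and 320 contrast barcodes. By a limit on markers of other lineages that was added after the data were seen, 10 members were mixed barcodes, 8 of them in shNC library 1. One of these, with 119790 UMIs, held 80.5% of all member UMIs of the granzyme gene Gzmd and 96.3% of those of Ifng, and a barcode of shNC library 2 held 61.1% of those of the neutrophil gene S100a8. Barcode names are serial numbers and 11389 of 26570 recurred in more than 1 library, but no barcode had identical counts in 2 libraries.

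Members made up 0.298%, 0.957% and 0.758% of kept barcodes in libraries 1 to 3 labelled shPgk1, which held 20, 71 and 56 members. In shNC they made up 1.29%, 0.661% and 0.468%, with 99, 41 and 32 members. The groups overlapped, and the mean was 0.671 ± 0.338% in libraries labelled shPgk1 and 0.805 ± 0.428% in shNC (SD, n = 3 each), a difference of -0.134 percentage points (two-sided exact permutation test, p = 0.7, 1 after adjustment over 2 shares). As a share of members plus contrast barcodes, the mean was 3.69 ± 2.27% in libraries labelled shPgk1 and 3.32 ± 2.09% in shNC, a difference of 0.372 points (exact permutation test, p = 1). With 3 libraries against 3 this test cannot go below 0.1. The spread within a group was wide: library 1 labelled shPgk1 had 1.21% and library 2 had 5.65% by the second measure, with 95% Wilson intervals of 0.784% to 1.86% and 4.50% to 7.06% that cover counting error only. The sign of both differences depended on single libraries, since the first was 0.0523 without library 1 labelled shPgk1 and 0.107 without shNC library 1, and the second was -0.607 without library 2 labelled shPgk1 and -0.476 without shNC library 3.

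**Figure D1:**
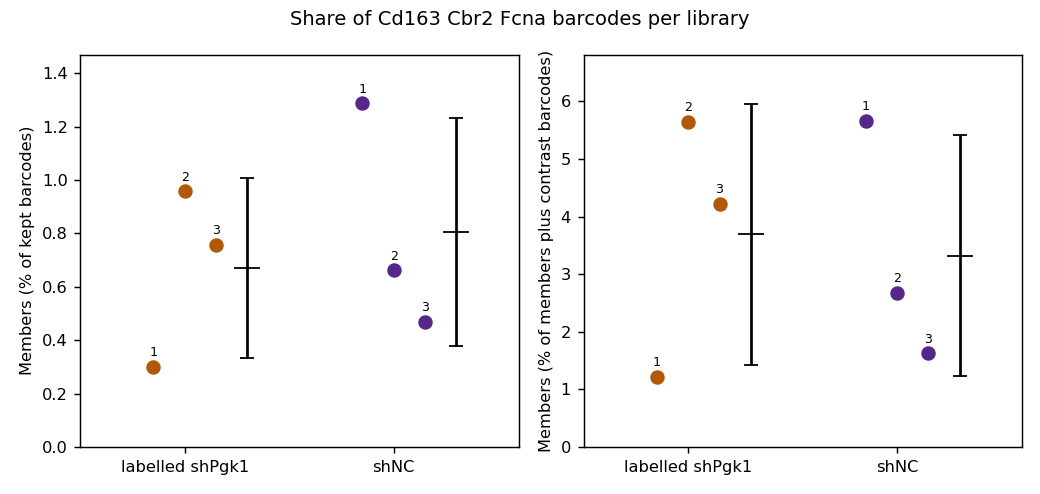
Share of Cd163 Cbr2 Fcna barcodes per library, as a percentage of kept barcodes (left) and of members plus contrast barcodes (right). Points are libraries, numbered by replicate, and bars give the mean and SD of 3 libraries; the 2 groups overlap on both scales.

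A further 3 genes were put forward with these cells, the folate receptor gene Folr2, the chemokine gene Ccl8 and Retnla, which encodes a secreted protein of alternatively activated macrophages. They are described without a test because they were named with these data in view. Folr2 stood at 295, 528 and 378 CPM in members of libraries 1 to 3 labelled shPgk1 and at 440, 630 and 312 CPM in members of shNC libraries, against 12.96 to 26.7 CPM in the contrast barcodes of the 6 libraries. Every member value lay above every contrast value. Ccl8, a ligand of CCR8 in the mouse, was the most abundant of the 3, at 14563, 14624 and 15879 CPM in members labelled shPgk1 and 26741, 22128 and 10832 CPM in shNC members, against 461 to 1738 CPM in contrast barcodes. At a common depth of 3000 UMIs, Ccl8 was detected in 96.1% of members, 49.1% of contrast barcodes and 29.2% of epithelial tumour-like barcodes. Whether UMIs in tumour-like barcodes came from free RNA, mixed barcodes or expression was not tested. For Folr2 these shares were 62.8%, 4.39% and 0.990%.

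Retnla behaved otherwise. Its summed level was 118, 53.7 and 500 CPM in members labelled shPgk1 and 669, 572 and 187 CPM in shNC members, against 0.211 to 4.69 CPM in contrast barcodes. Only 41 of 319 members had a Retnla UMI, and 5 members held 84.4% of the 1682 UMIs, the highest 491 in a barcode of shNC library 1. Retnla thus marked a few strongly expressing members, whereas Ccl8 was detected in 316, the mannose receptor gene Mrc1 in 299 and Folr2 in 269. The acute-phase gene Saa3 was similarly uneven, with 75.6% of its UMIs in 5 members.

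Members were then compared with contrast barcodes over genes outside the gate. UMIs were summed per library and class and tested with edgeR, with library as a term. Of 12750 genes tested, 1030 (8.08%) were higher and 1290 (10.1%) were lower in members, together 18.2%, at a Benjamini-Hochberg adjusted p below 0.05. Of the same 12750 genes, 2245 (17.6%) had the same direction in all 6 libraries. Members and contrast barcodes also differed in depth: with 1 contrast barcode matched to each member on UMIs, 806 genes were called of 5775 tested. Lists of genes are given below as counts out of the genes tested and by their median log2 fold, beside -0.04 over all genes tested.

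**Figure D2:**
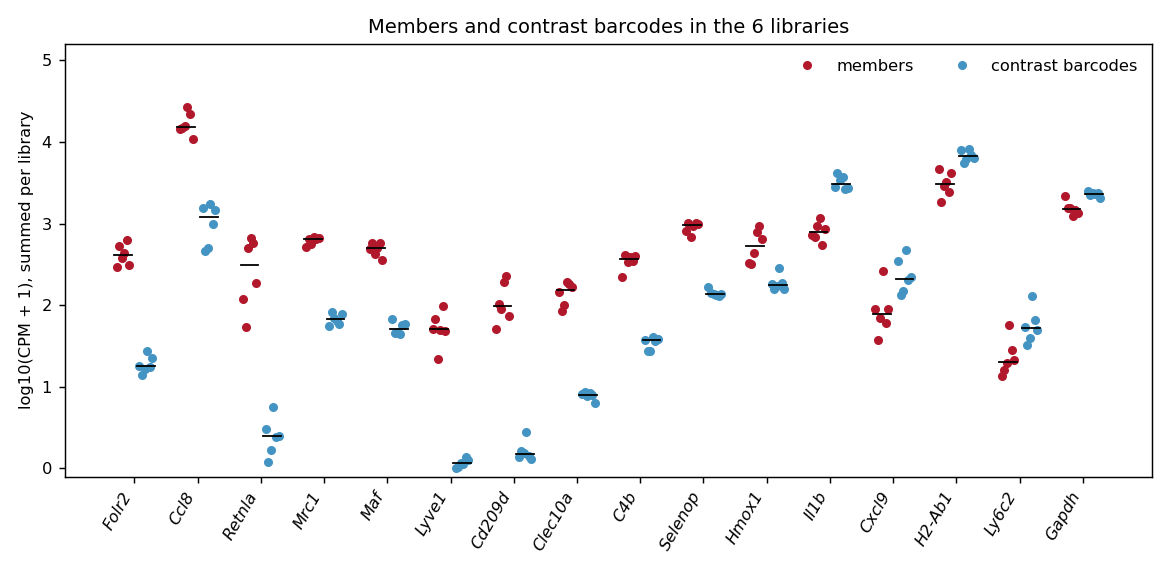
Level of 16 genes in members and contrast barcodes, as log10(CPM + 1) of the UMIs summed per library. Each point is 1 of 6 libraries and bars are medians; Folr2, Ccl8, Retnla, Mrc1, Maf, Lyve1, Cd209d, Clec10a, C4b and Selenop lie higher in members within each of the 6, and Il1b, H2-Ab1, Cxcl9 and Gapdh lower.

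Resident macrophage genes had the highest median of the 17 lists, a log2 fold of 3.17. Without Folr2, Ccl8 and Retnla, 16 of 19 rose, 0 fell, and Timd4, Ccl24 and Mgl2 did not pass. Lyve1, whose product binds hyaluronan, was at 50.5, 66.3 and 21.0 CPM in members labelled shPgk1 and 48.2, 96.7 and 47.5 CPM in shNC members, against 0 to 0.381 CPM in contrast barcodes, where 25 UMIs were counted in all. F13a1, the gene of the transglutaminase subunit of coagulation factor XIII, averaged 306 ± 105 CPM in members and 16.1 ± 1.75 CPM in contrast barcodes (SD, n = 6 libraries each). Its log2 fold was 4.11 ± 0.12 (SE, edgeR adjusted p = 7.2e-55). Selenop, the secreted selenium carrier, averaged 908 ± 132 CPM in members and 140 ± 13.5 CPM in contrast barcodes, a log2 fold of 2.59 ± 0.10. Gas6, a ligand that bridges dying cells to the receptors MERTK and AXL, rose by a log2 fold of 3.86 ± 0.14, and Igf1, the insulin-like growth factor, by 3.17 ± 0.17. Ednrb, the endothelin B receptor gene, averaged 69.2 CPM in members and 1.32 CPM in contrast barcodes, a log2 fold of 5.58 ± 0.23. Vsig4, a complement receptor of resident macrophages such as Kupffer cells, was called at a log2 fold of 8.20 ± 0.60 on only 63 member UMIs in 21 members, against 5 UMIs in contrast barcodes.

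The CD209 family of C-type lectins, the mouse relatives of human DC-SIGN, filled 6 of the 15 places among the largest rises. Another 2 places were those of Folr2 and Retnla, which are not counted as tested. Cd209d averaged 122 ± 69.9 CPM in members and 0.674 ± 0.554 CPM in contrast barcodes, a log2 fold of 7.36 ± 0.22. Cd209g, Cd209b and Cd209f averaged 94.4, 50.6 and 41.5 CPM in members and less than 0.3 CPM in contrast barcodes, with log2 folds of 8.63 ± 0.31, 8.27 ± 0.39 and 8.73 ± 0.45. Cd209e and Cd209a had log2 folds of 6.82 ± 0.43 and 5.30 ± 0.38. Folds of this size rest on 11 to 104 contrast UMIs per gene and are imprecise at that end. Each was detected in a minority of members, from 42 for Cd209e to 81 for Cd209d, and these genes lie close in sequence, so reads shared between them could be split by the counting. The remaining 7 places went to Lyve1, Ednrb and F13a1, to Clec10a, a lectin of galactose-type sugars, at 4.23 ± 0.16, to Lrg1, a secreted leucine-rich glycoprotein, at 4.71 ± 0.18, and to Tmem8 at 4.51 ± 0.18 and Nxpe5 at 4.45 ± 0.16. The 15 were chosen among genes with the same sign in all 6 libraries, so that agreement is no result.

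Scavenger and endocytic receptors rose in 11 of 18 cases and fell in 2, Axl and Clec4n (median log2 fold 0.80). Mrc1, the mannose receptor gene, was at 522, 637 and 559 CPM in members labelled shPgk1 and 678, 637 and 655 CPM in shNC members, against 54.3 to 81.8 CPM in contrast barcodes, a log2 fold of 3.09 ± 0.10 (edgeR adjusted p = 1.1e-51). It was among the steadiest genes of the members, with no overlap between the classes. Fcgrt, which encodes the neonatal Fc receptor that recycles antibody and albumin, averaged 920 ± 178 CPM in members and 114 ± 12.99 CPM in contrast barcodes, a log2 fold of 2.90 ± 0.10. Stab1, the scavenger receptor stabilin-1, and Siglec1, the sialic acid lectin of sinus macrophages, rose by log2 folds of 2.23 ± 0.12 and 2.49 ± 0.16. Msr1, Cd36, Lrp1, Scarb1 and Timd4 did not pass.

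Of 13 complement genes tested, 7 rose and Itgax, the integrin chain CD11c of dendritic cells and activated macrophages, fell by 1.13 ± 0.13 on the log2 scale (median of the list 0.44). C4b, the classical and lectin pathway component that follows ficolin and C1q, was at 223, 415 and 340 CPM in members labelled shPgk1 and 383, 351 and 395 CPM in shNC members, against 26.2 to 39.8 CPM in contrast barcodes (log2 fold 3.30 ± 0.13). C5ar1, the receptor of C5a, rose by 0.81 ± 0.12. An activating component and an anaphylatoxin receptor were thus both higher, while C3, C2, Cfb, Itgam and Serping1 did not pass.

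Iron and haem genes rose in 6 of 13 cases and 0 fell (median log2 fold 0.19). Hmox1, haem oxygenase 1, which breaks down haem from red cells, averaged 574 ± 253 CPM in members and 190 ± 47.4 CPM in contrast barcodes, a log2 fold of 1.42 ± 0.22 (edgeR adjusted p = 0.0070, and 0.088 with contrast barcodes matched on UMIs). Cp, the ferroxidase ceruloplasmin, averaged 52.8 CPM in members and 14.4 CPM in contrast barcodes, a log2 fold of 1.72 ± 0.17. Slc40a1, the iron exporter ferroportin, passed at 2.19 ± 0.52 but on 21 UMIs in 11 members, 8 of them in 1 barcode. Tfrc, the transferrin receptor, rose by 1.31 ± 0.33 on 54 UMIs. The ferritin genes Fth1 and Ftl1 did not pass.

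Chemokine genes divided. Without Ccl8, 7 of 19 rose and 4 fell (median log2 fold 0.03). Ccl9 was at 404, 671 and 668 CPM in members labelled shPgk1 and 668, 820 and 595 CPM in shNC members, against 65.3 to 152 CPM in contrast barcodes (log2 fold 2.50 ± 0.10). Ccl6 rose by 2.00 ± 0.18 and Ccl2, the main attractant of CCR2-bearing monocytes, by 1.23 ± 0.18. With the depth-matched contrast the adjusted p of these 3 genes was 0.055, 0.060 and 0.056, at log2 folds of 1.88, 1.53 and 1.20. The genes that fell were Cxcl9, Cxcl10 and Cxcl16, ligands of CXCR3 and CXCR6 on T cells, and Ccl17. Cxcl9 averaged 100 ± 81.9 CPM in members and 252 ± 131 CPM in contrast barcodes, lower in members in 6 of 6 libraries, with a log2 fold of -1.50 ± 0.12 (adjusted p = 6.1e-18, and 0.056 without the library term).

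Inflammatory genes moved the other way. Of 14 tested, 10 fell and 0 rose by the edgeR test, with a median log2 fold of -0.81 (10 genes at an unadjusted p below 0.05, 9 called by DESeq2), and Nos2, Tnf, Il6 and Cd86 did not pass. Il1b, the interleukin 1 beta gene, was at 715, 689 and 925 CPM in members labelled shPgk1 and 1160, 538 and 867 CPM in shNC members, against 2665 to 4102 CPM in contrast barcodes, a log2 fold of -2.11 ± 0.10 (adjusted p = 4.5e-12). The classes did not overlap. At 3000 UMIs each, Il1b was detected in 67.4% of members, 91.3% of contrast barcodes and 48.5% of tumour-like barcodes. Acod1, the itaconate-forming enzyme of activated macrophages, fell by 1.49 ± 0.14 and Ptgs2, cyclooxygenase 2, by 1.04 ± 0.15 on the log2 scale. Without barcodes bearing other lineage markers Acod1 had a log2 fold of -0.48 (adjusted p = 0.48). Il12b had no UMI in 319 members against 480 in contrast barcodes, at least 4.32-fold lower when members are set at 3 counts over the group, a bound that leaves the median of the list as given.

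MHC class II genes fell in 7 of 8 cases, all but H2-Oa, with a median log2 fold of -1.08. H2-Ab1 was at 4624, 1854 and 2850 CPM in members labelled shPgk1 and 3264, 2440 and 4119 CPM in shNC members, against 5497 to 8112 CPM in contrast barcodes, a log2 fold of -1.25 ± 0.16 (edgeR adjusted p = 0.0023). Cd74, the invariant chain, averaged 6195 ± 2198 CPM in members and 11409 ± 890 CPM in contrast barcodes, a log2 fold of -1.06 ± 0.18. H2-DMb1, part of the peptide loader, fell by 1.29 ± 0.15. H2-Aa fell by 1.18 ± 0.21 with an adjusted p of 0.016, which was 0.068 without shNC library 1. H2-Ab1 was detected in 95.5% of members, 99.3% of contrast barcodes and 93.1% of tumour-like barcodes at 3000 UMIs.

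The remaining large falls included Adamdec1, a metalloprotease-like gene, at 4.89 ± 4.45 CPM in members and 38.9 ± 7.19 CPM in contrast barcodes (log2 fold -3.11 ± 0.27), and the lectin receptor gene Klrb1b at 6.12 ± 4.47 and 39.0 ± 7.73 CPM (log2 fold -3.01 ± 0.26). Il1r2, the decoy receptor for interleukin 1, fell by 2.58 ± 0.38 and the interferon-inducible Ifitm1 by 2.55 ± 0.42. The adjusted p of Ifitm1 was 0.011, and 0.058 with the depth-matched contrast. Ccdc162, Procr, Cyp4f18, Malt1, Cytip, Adgrg5, Tnfsf13b, Ppfia4 and the monocyte gene Ms4a4c had log2 folds of -2.28 to -1.63. Ccr7 completed the 15 at -2.33 ± 0.56 (adjusted p = 0.044), and its adjusted p was 0.077 to 0.109 without library 1 or 3 labelled shPgk1 or shNC library 2 or 3. Of 13 monocyte genes, Ms4a4c and Ly6c2 fell and 0 rose (median log2 fold -0.25, 5 at an unadjusted p below 0.05 and 5 called by DESeq2). At 3000 UMIs Ly6c2 was found in 4.90% of members, 10.9% of contrast barcodes and 9.12% of tumour-like barcodes. Whether its UMIs came from free RNA, mixed barcodes or expression was not tested.

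Genes of alternative activation gave no common direction, with 4 of 15 higher and 3 lower once Retnla was set aside (median log2 fold 0.20). Mrc1, Clec10a, Cd200r1 and Il4ra, the interleukin 4 receptor chain, rose, Il4ra by 1.27 ± 0.10. Pdcd1lg2, the PD-1 ligand PD-L2, fell by 0.92 ± 0.19 (adjusted p = 0.13 with matched contrast barcodes) together with Ccl17 and Socs2. Arg1, the arginase gene, did not pass. Lipid-associated genes rose in 8 of 16 cases and fell in 3 (median log2 fold 0.48). Ctsd and Ctsb, lysosomal proteases, rose by 1.32 ± 0.09 and 0.97 ± 0.08 and Trem2, a lipid-sensing receptor, by 0.61 ± 0.10, while Spp1, osteopontin, fell by 0.57 ± 0.08 and Cd9 by 0.66 ± 0.14. With matched contrast barcodes the adjusted p was 0.19 for Spp1 and 0.17 for Cd9.

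Transcription factor genes rose in 8 of 19 cases, and Bhlhe40 fell (median log2 fold 0.33). Maf, the factor whose half-site is marked in the promoters above, was at 492, 576 and 419 CPM in members labelled shPgk1 and 501, 582 and 352 CPM in shNC members, against 42.7 to 67.4 CPM in contrast barcodes (log2 fold 3.13 ± 0.11, edgeR adjusted p = 1.4e-33). Klf4 rose by 1.30 ± 0.11, Klf2 by 1.14 ± 0.11 and the immediate early gene Egr1 by 1.91 ± 0.10. Of 15 growth factor and matrix genes 5 rose and 3 fell (median log2 fold 0.87). Timp2, a metalloprotease inhibitor, rose by 2.29 ± 0.13 and the growth factor gene Pdgfc by 2.40 ± 0.21, and the collagenase gene Mmp13 fell by 1.32 ± 0.16. Glycolytic genes fell in 11 of 15 cases, with a median log2 fold of -0.36. Gapdh averaged 1544 ± 316 CPM in members and 2292 ± 145 CPM in contrast barcodes (log2 fold -0.69 ± 0.08), Eno1 fell by 0.69 ± 0.10 (adjusted p = 0.055 with matched contrast barcodes), and Pfkfb3, the enzyme that makes the activator of phosphofructokinase, was the only 1 of the 15 to rise, by 0.79 ± 0.14.

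The medians of the last 4 lists lay between -0.32 and -0.04. Of 12 NF-kB genes 4 fell and 0 rose, among them Nfkb1 by 0.54 ± 0.11 (adjusted p = 0.074 with matched contrast barcodes), with 5 at an unadjusted p below 0.05 and 2 called by DESeq2. Interferon genes fell in 3 of 12 cases, Isg15 by 1.08 ± 0.15, and heat shock genes rose in 1 and fell in 3 of 7. None of 12 cell cycle genes passed in either direction with edgeR, none had an unadjusted p below 0.05 and DESeq2 called 0.

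**Figure D3:**
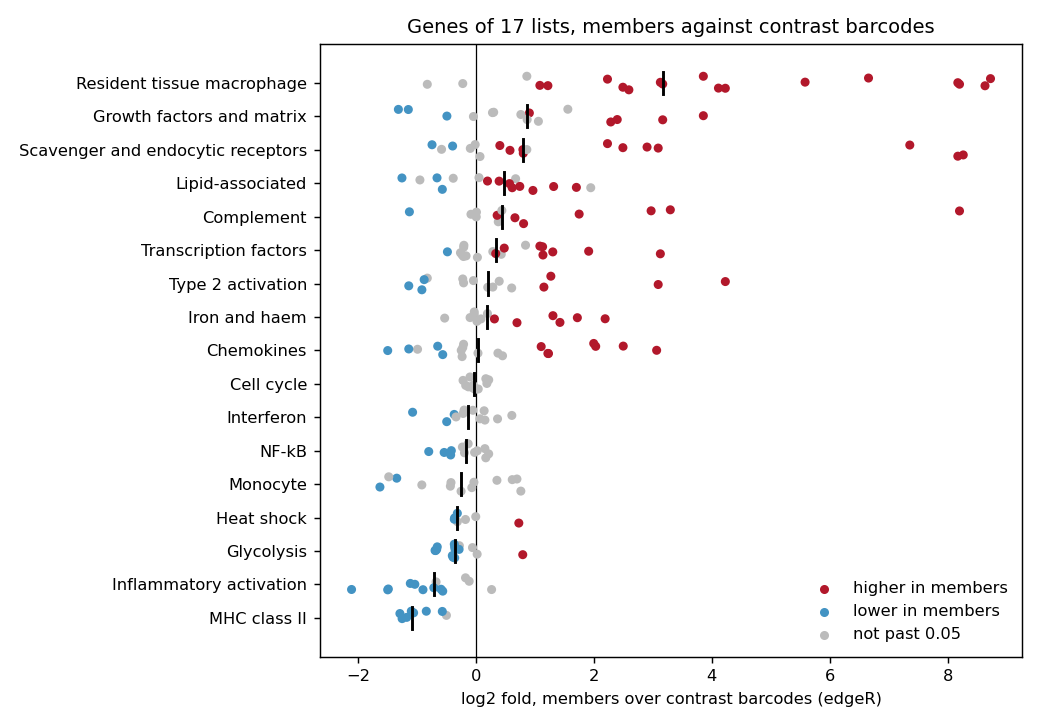
Log2 fold of members over contrast barcodes for each gene of 17 lists, without the gate genes, Folr2, Ccl8, Retnla and Il12b, which had no member UMI. Points are genes, coloured by edgeR adjusted p, and black bars are medians of the points shown; resident macrophage genes lie far to the right, and MHC class II, inflammatory and glycolytic genes to the left.

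Within members, libraries labelled shPgk1 and shNC were compared to ask whether the hairpin label went with a change in these macrophages. Of 6039 genes tested, 1 (0.0166%) was higher and 4 (0.0662%) were lower in libraries labelled shPgk1, 0.0828% in all (edgeR adjusted p below 0.05), DESeq2 called 12, and 702 genes (11.6%) had groups that did not overlap in CPM. The ribosomal-RNA-like transcripts took 11.7%, 11.7% and 9.67% of member UMIs in libraries labelled shPgk1, against 13.6%, 16.4% and 15.2% in shNC, without overlap, and 7.06% to 7.79% against 8.58% to 10.3% in contrast barcodes. Their part in the group comparison was not tested. The count was 0 without library 2 labelled shPgk1, 2 without library 3 labelled shPgk1, 14 without shNC library 3 and 26 without shNC library 2.

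Hmox1 was lower in members labelled shPgk1, at 324, 320 and 439 CPM, against 796, 923 and 642 CPM in shNC members. The groups did not overlap, and the log2 fold was -1.18 ± 0.18 (edgeR adjusted p = 0.0062). In contrast barcodes it was at 181, 157 and 172 CPM with the shPgk1 label and 283, 188 and 158 CPM in shNC, a log2 fold of -0.34 ± 0.20 that did not pass (adjusted p = 0.43). The call ended without library 2 labelled shPgk1 (log2 fold -1.11, adjusted p = 0.16), with a gate of 3 UMIs per 10000 (-1.02, 0.27) and with a stricter gate of all 3 genes and a sum of 5 (-1.41, 0.063), at folds of similar size. It also ended in the 1 to 17 members per library left when every barcode with markers of another lineage was dropped (-0.81, 0.67). It was kept without mixed barcodes, at -1.29 and an adjusted p of 0.0012.

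Ch25h, cholesterol 25-hydroxylase, which makes an antiviral oxysterol, was higher in members labelled shPgk1, at 58.9, 91.4 and 66.5 CPM, against 16.1, 18.9 and 7.50 CPM in shNC members, a log2 fold of 2.28 ± 0.33 (edgeR adjusted p = 0.0062). Its 183 member UMIs lay in 45 members, with 53.0% in 5 members and 38 UMIs in 1 barcode of library 3 labelled shPgk1. In contrast barcodes the fold was 1.63 ± 0.43 and did not pass (adjusted p = 0.17). The call ended without library 2 labelled shPgk1 (log2 fold 2.02, adjusted p = 0.16) and without shNC library 1 (2.34, 0.052), at folds of similar size. Both genes take part in lists above, and no other gene of the iron and haem or lipid-associated lists passed.

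The other calls were Arvcf, a catenin-family gene, at 21.0, 10.3 and 14.01 CPM in members labelled shPgk1 and 41.0, 79.9 and 77.5 CPM in shNC members (log2 fold -2.27 ± 0.39, adjusted p = 0.026), Tnc and the transcript Gm14015. Arvcf was also lower in contrast barcodes, by 1.00 ± 0.13, and its call in members ended without library 2 or 3 labelled shPgk1 (log2 fold -2.07 and -2.28, adjusted p = 0.32 and 0.27) and with the gate per 10000 UMIs (-2.80, 0.15) and the stricter gate (-1.54, 0.81). Gm14015 had 0, 1 and 0 UMIs in members labelled shPgk1 and 51, 10 and 7 in shNC members, and it was nearly as low in the contrast barcodes with the shPgk1 label, so the difference was shared by both classes of macrophages. Tnc encodes tenascin C, a matrix protein of fibroblasts, and was at 12.6, 20.6 and 16.3 CPM in members labelled shPgk1 and 84.4, 50.4 and 42.5 CPM in shNC members (log2 fold -1.87 ± 0.33, adjusted p = 0.031). Without mixed barcodes its adjusted p was 0.27, without shNC library 1 it was 0.28, without libraries 1, 2 and 3 labelled shPgk1 it was 0.10, 0.16 and 0.31, and with a gate of 3 UMIs per 10000 it was 0.57, at log2 folds of -2.09 to -1.31. In contrast barcodes Tnc was at 15.5, 29.2 and 26.0 CPM with the shPgk1 label and 28.0, 40.8 and 94.1 CPM in shNC. The log2 fold there had the same sign, -1.25 ± 0.54, and did not pass (edgeR adjusted p = 0.33). The summed level of 6 fibroblast markers in members was 231, 362 and 403 CPM with the shPgk1 label and 951, 418 and 747 CPM in shNC, with UMIs of all 6 in members and in contrast barcodes, and its part in these results was not tested. Summed markers of other cell types in members also stood lower with the shPgk1 label. For 6 neutrophil genes they were 75.7 to 143 CPM against 370 to 5750 CPM in shNC. For 6 T cell genes they were 19.4 to 24.5 against 29.4 to 186 CPM, and for 5 mast cell genes 27.4 to 42.1 against 46.2 to 203 CPM. Contrast barcodes shared the lower level for neutrophil (60.01 to 228 against 598 to 630 CPM) and mast cell genes (22.2 to 36.0 against 53.4 to 201 CPM). They also shared it for fibroblast genes (265 to 493 against 509 to 1052 CPM), while their T cell sums overlapped (25.7 to 37.5 against 28.5 to 54.9 CPM). The part of these markers was likewise not tested.

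Apart from Hmox1 and Ch25h, no gene of the 17 lists passed with edgeR. Of 19 resident macrophage genes tested here 0 were called by edgeR, with 1 at an unadjusted p below 0.05 and 0 by DESeq2. Clec10a had the smallest p among them, at 143, 84.6 and 99.2 CPM with the shPgk1 label and 190, 181 and 165 CPM in shNC (log2 fold -0.84 ± 0.23, adjusted p = 0.42). Folr2 and Ccl8 had log2 folds of -0.24 ± 0.26 and -0.45 ± 0.31 (adjusted p = 0.95 and 0.94). Without shNC library 3, Ccl8 passed, at a log2 fold of -0.72 (edgeR adjusted p = 0.012). Pgk1 itself was at 257, 288 and 297 CPM in members labelled shPgk1 and 278, 385 and 330 CPM in shNC members (log2 fold -0.29 ± 0.19, adjusted p = 0.94). None of 12 NF-kB, 13 alternative activation, 12 inflammatory and 15 glycolytic genes passed with edgeR; the numbers at an unadjusted p below 0.05 were 0, 1, 1 and 1, and DESeq2 called 0 in each of these 4 lists. Other lists had more genes at an unadjusted p below 0.05, beside 334 of 6039 over all genes. Of 10 monocyte genes there were 5, with a list median of -0.72 and 0 called by edgeR or DESeq2. Ly6c2 was first among them, at 12.6, 14.9 and 18.7 CPM in members labelled shPgk1 and 56.3, 27.3 and 19.99 CPM in shNC members (log2 fold -1.29 ± 0.38, edgeR adjusted p = 0.47). Its direction was the same in contrast barcodes, at 53.2, 31.5 and 38.9 CPM with the shPgk1 label and 129, 65.4 and 48.7 CPM in shNC. The log2 fold there was -1.01 ± 0.42 (edgeR adjusted p = 0.31). Of 15 lipid-associated genes there were 4, Ch25h included. Of 11 interferon genes there were 3, and DESeq2 called 1, Rsad2, an antiviral enzyme gene. Rsad2 was at 151, 88.0 and 68.9 CPM in members labelled shPgk1 and 192, 202 and 270 CPM in shNC members, with a log2 fold of -1.25 ± 0.28 that did not pass with edgeR (adjusted p = 0.17). By the naming rule the smallest p among rises after Ch25h belonged to the survival gene Bcl2a1b (0.90 ± 0.21, adjusted p = 0.18), Fam110b (2.56 ± 0.61, 0.19) and the protease inhibitor gene Spint2 (1.20 ± 0.31, 0.31), none of which passed.

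**Figure D4:**
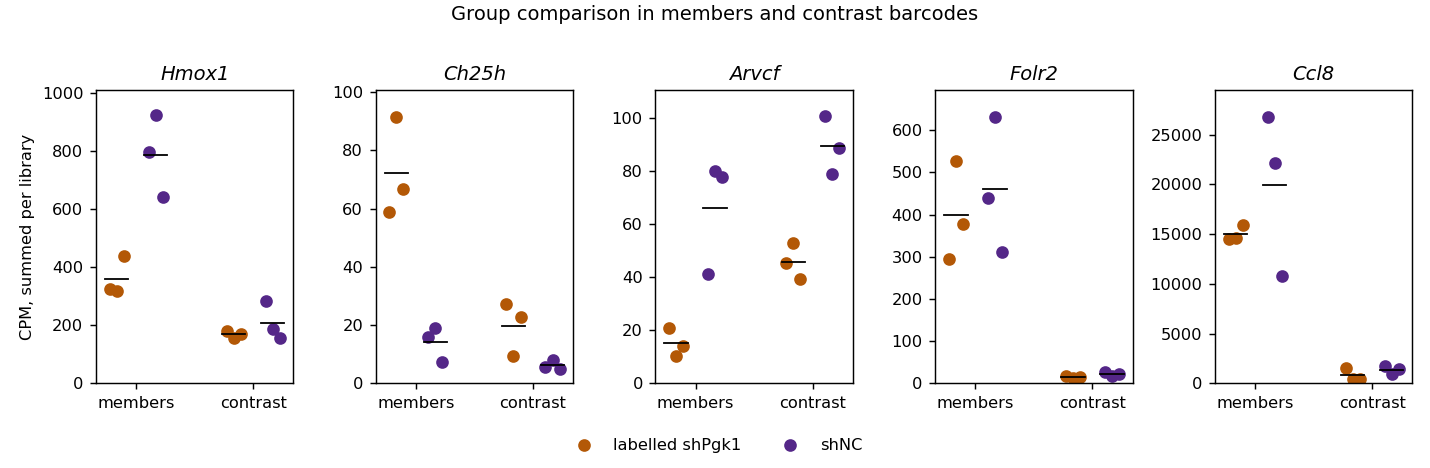
CPM per library of Hmox1, Ch25h, Arvcf, Folr2 and Ccl8 in members and in contrast barcodes, libraries labelled shPgk1 left of shNC. Points are libraries and bars means of 3; Hmox1, Ch25h and Arvcf do not overlap between groups in members, Folr2 and Ccl8 do.

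Whether the group difference in members differed from that in contrast barcodes was tested with a class by group term. Of 13906 genes, 7 (0.0503%) had a higher and 13 (0.0935%) a lower term in members, 0.144% in all (edgeR adjusted p below 0.05). With contrast barcodes matched on depth the count was 0, with 323 genes at an unadjusted p below 0.05, and after every barcode was thinned to 3000 UMIs it was 2. Hmox1 had a term of -0.85 ± 0.19 (adjusted p = 0.013), which no longer passed with matched depth (-1.15, adjusted p = 1). Among the others the interleukin and tumour necrosis factor genes stood on both sides: Tnf had a term of 0.92 ± 0.23 (adjusted p = 0.040) and Il1r2 of -1.41 ± 0.31 (adjusted p = 0.011). Tnf was at 215, 153 and 184 CPM in members labelled shPgk1 and 137, 124 and 82.5 CPM in shNC members, against 133, 131 and 154 CPM with the shPgk1 label and 246, 161 and 105 CPM in shNC among contrast barcodes. The count of calls was 10 without library 3 labelled shPgk1, 12 without library 2, 36 without library 1 and 38 without shNC library 3.

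Members also differed among themselves. Lyve1 was detected in 88 members, 5, 27 and 10 in libraries labelled shPgk1 and 28, 11 and 7 in shNC, and these had a median of 7652 UMIs, against 9099 in the 231 without a Lyve1 UMI. In the members with Lyve1, Cbr2 had a median over libraries of 853 CPM, against 248 CPM in the rest, and it was higher in 6 of 6 libraries. Folr2 (723 against 340 CPM), Mrc1 (999 against 519), Clec10a (400 against 89.8), Ednrb (158 against 43.3), F13a1 (537 against 219), the phospholipid transfer protein gene Pltp (1213 against 371), Lrg1 and the complement gene C6 were also higher in 6 of 6. Lower in 6 of 6 were Arg1 (280 CPM with Lyve1 against 1471 CPM without), Fabp5, a fatty acid carrier (142 against 1207), the scavenger receptor gene Msr1 (71.1 against 340), the granule proteoglycan gene Srgn (497 against 2081) and the cycling genes Mki67, Top2a and Stmn1 (Stmn1 26.3 against 108). Other genes had no common direction over libraries: C1qa (5654 CPM with Lyve1 against 6035 CPM without) and Cd74 (5751 against 5822) were higher with Lyve1 in 2 of 6, Hmox1 (528 against 529) in 3 of 6 and Apoe (22439 against 21190) in 4 of 6. H2-Ab1 (2790 against 3157) was higher with Lyve1 in 1 of 6. Single libraries differed more than these medians, with Cd74 at 1228 CPM with Lyve1 against 4226 CPM without in library 2 labelled shPgk1. The division was made on measured counts of the same barcodes and in 5 to 28 members per library with Lyve1, so it is a description and no test was run.

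**Figure D5:**
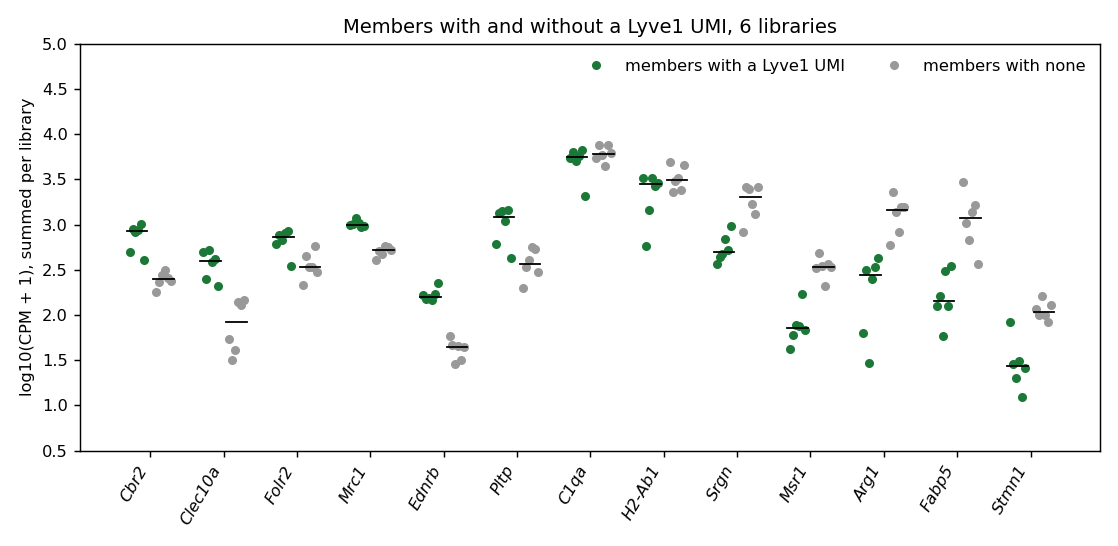
Level of 13 genes in members with and without a Lyve1 UMI, as log10(CPM + 1) of the UMIs summed per library. Points are the 6 libraries and bars medians; Cbr2, Clec10a, Folr2, Mrc1, Ednrb and Pltp are higher, and Srgn, Msr1, Arg1, Fabp5 and Stmn1 lower, in members with Lyve1 in every library, while C1qa and H2-Ab1 overlap.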

How the data were processed

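Per the file headers the deposited matrices came from PISA 0.12 and hold raw UMI counts per gene and barcode. The submitters' processing notes name Seurat 4 and the human build GRCh38 (hg38), although the gene names are those of mouse, and no source used here gives the aligner. Columns of other samples numbered 0.

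Samples were grouped by title. UMIs were summed per library and class, and edgeR 4.0.16 (R 4.3.3; quasi-likelihood, robust, TMM, filterByExpr, Benjamini-Hochberg, threshold 0.05) was the test, with DESeq2 1.42.0 as an alternative. The standard error is the log2 fold divided by the square root of F. The fit of members against contrast had library as a term, the group comparison had none, and the fit of the difference between classes had library and class. Library pairs differed beyond sampling noise (chi-square per degree of freedom 24.4 to 278), so none was treated as a repeat. Thinning to 3000 UMIs left out 27 members. Scrublet, in scanpy 1.11.5, marked 1 barcode in 4 of the 6 libraries by its own threshold, so a score of 0.25 served as an alternative. The fits were tested on simulated counts with a fixed dispersion of 0.05, which was set and not estimated from these libraries. Changes were placed only in genes above a floor on the mean count, so recovery may be lower for genes with fewer UMIs. For log2 changes of 1 and 2, the fit of members against contrast recovered 54.5% and 87%. The group comparison recovered 46% and 99.0%, and the class by group term 5% and 38%. A gene that did not pass may therefore still differ. Intervals cover counting error only.

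Named genes were, for members against contrast, the 15 largest rises and falls past the threshold with at least 20 CPM and the same sign in 6 libraries, plus up to 8 per list by p. For the group fits they were up to 10 per direction without overlap, else the 3 smallest p, plus up to 3 per list. Gm14015, genes given only as passing or not, and the genes of the Lyve1 description were chosen after their values were seen. The members, the gene lists and the rule were chosen with earlier results of these data known. Some genes of the lists are counted but not reported here by name.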

Additional observations from a re-analysis of the deposited data

Results flagged for a closer look

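The log2 ratio of members over contrast barcodes, on log2(CPM + 1), was screened in 77 genes for a single library apart from the other 5 by Dixon's test, which marks about 5% of such groups by chance. The lowest ratio stood apart in 5 genes. Library 1 labelled shPgk1, which held 20 members, was lowest for Tnfsf13b at -5.05, for Acod1 at -2.19 and for Ly6c2 at -1.99. Library 3 of shNC, with 32 members, was lowest for Gas6 at 2.78 and for Stab1 at 1.35.

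The class by group term, which tests whether the difference between libraries labelled shPgk1 and shNC was another in members than in contrast barcodes, passed in 12 named genes (edgeR, adjusted p below 0.05). It was higher in members for Apoc1 at 2.93, Msantd3 at 1.75, Cacna1d at 1.49, Tnf at 0.92 and Bcl2a1b at 0.80. It was lower for Inhba at -2.02, Mgl2 at -1.44, Il1r2 at -1.41, S100a4 at -1.19, Hbegf at -1.13, Lmnb1 at -1.03 and Hmox1 at -0.85. Of the member UMIs of Apoc1, 70.3% lay in 1 barcode of library 3 labelled shPgk1. Without that library the Apoc1 term was 1.31 and did not pass. For Inhba, 50% of the member UMIs lay in 1 barcode of shNC library 1. With contrast barcodes matched on UMIs 0 genes passed of 6858 tested, with 323 at an unadjusted p below 0.05.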

How the results depend on the processing

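The tests on shares cannot pass 0.05 with this few libraries, so the values alone are given. The difference in share of kept barcodes was 0.166 without barcodes bearing other lineage markers and ran from -0.303 to 0.107 when 1 library was left out. As a share of the C1q pool it was -0.130 with the stricter gate, -0.0921 with the gate per 10000 UMIs and -0.0406 with a contrast of at least 50 C1q UMIs per 10000, and ran from -0.607 to 1.61 without 1 library. At 5000 UMIs 77.3% of members had a Folr2 UMI. Members against contrast gave 806 genes with matched depth (fewer barcodes, 5775 genes tested), 1512 thinned and 518 without other lineage markers. Of 77 named genes none reversed under these settings: 1392 values stayed on the same side of the threshold and 24 lost the call. The group comparison gave 12 genes with DESeq2, 1 with the gate per 10000 UMIs, 0 with the stricter gate, 8 without mixed barcodes and 62 without a low-count filter, and 0 to 26 without 1 library. The cause of these shifts was not tested. Ccl8 passed at -0.72 without shNC library 3, Clec10a was 0.0826 with the stricter gate, and Folr2 ran from -0.52 to 0.0826 without 1 library. The class by group term gave 0 genes with matched depth, 2 thinned and 10 to 38 without 1 library. It was 0.35 for Hmox1 and 0.46 for S100a4 without other lineage markers, and 0.15 for Inhba with the stricter gate. Replicate numbers did not pair the samples (correlations of deviations -0.031, 0.159 and 0.066). With the replicate block 6 genes were called in the group comparison, the share differences stayed at -0.134 and 0.372 (exact p = 1 for both), and Tnc had an adjusted p of 0.065. Mixed barcodes, thinning, and a contrast held to few epithelial UMIs were alternatives chosen after seeing the data. The 20 members of library 1 labelled shPgk1 limit every value that rests on it.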
